A study of Nannochloropsis oceanica with 12 samples.

Results

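The steady abundant transcripts of *Nannochloropsis oceanica* IMET1, a single-celled marine alga, were 74 of the 9756 genes with deposited values. They were chosen on FPKM as deposited, the fragments of a transcript scaled to its length and to the mapped total of its library. A gene was a member when its mean was at least 150 FPKM in each of the 4 groups and when L, the log2 of the group mean plus 1, differed by less than 0.3 between its highest and its lowest group. The group means were taken over 10 libraries and left out WT 12 h replicate 3. The abundance condition alone was met by 483 genes, of which the members were 15.3%, and the other 409 are called abundant non-members here. The wild type (WT) and M2, a single RNA interference line with lowered expression of the carbonic anhydrase CA2, both in strain IMET1, were grown with 5% CO2 in continuous light, moved to fresh medium and sampled 12 h and 24 h later. The labels give 3 biological replicates in each of WT 12 h, M2 12 h, WT 24 h and M2 24 h. Whether whole-cell or nuclear RNA was measured is not settled, since the labels name both. With 1 knockdown line and no control line other than WT, an effect of CA2 and other differences between the lines cannot be told apart.

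A carbonic anhydrase converts CO2 and bicarbonate into each other, and algae use such enzymes to bring inorganic carbon to Rubisco. Transcripts that keep one level across strains and times are used as a yardstick for others, as reference genes in quantitative PCR are. FPKM is relative to the sequenced RNA of a library, and the amount of a transcript per cell cannot be read from it. A steady FPKM means a steady share of all FPKM only between libraries with like sums of FPKM. The IDs give a scaffold and a number and no gene name, and none of the 9756 (0) matched the 160 organelle genes of the reference table used here. The products of the members are therefore not named, a list of usual reference gene products (actin, tubulin, ubiquitin, elongation factor, ribosomal proteins and others) could not be looked up, and no sequences are shown.

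Of the 12 labelled libraries 11 were distinct, because 1 of the 3 M2 12 h columns was a multiple of another, replicate 1. The sum of FPKM was 606886 to 617319 in the 10 libraries the rule used and 780704 in WT 12 h replicate 3. That library stood apart, with 538 genes at 0 against 5 to 109 in the others, so results that rest on it are given with and without it. The depth in reads is unknown.

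The members had means of 158 to 1627 FPKM over the 4 groups, with a median of 242 FPKM. Only 3 had means of at least 1000 FPKM, 7 lay between 500 and 1000, and 64 lay under 500. The abundant non-members reached higher, with a median of 421 and a maximum of 4283 FPKM. Together the members made up 4.22% to 4.46% of all FPKM in the 10 libraries the rule used. The share was 4.45% ± 0.0221 in M2 12 h (SD, n = 2), 4.34% ± 0.00308 in M2 24 h (SD, n = 3) and 4.23% ± 0.0078 in WT 24 h (SD, n = 3). In WT 12 h it was 3.96% ± 0.584 (SD, n = 3), and 4.30% without replicate 3. The rule fixes these shares in part, so they are a description.

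The highest of the members was scaffold00080.g2737, with 1647 and 1701 FPKM in WT 12 h replicates 1 and 2, 1754 and 1724 in M2 12 h, 1570.1, 1516 and 1527 in WT 24 h, and 1569, 1574 and 1527 in M2 24 h. Its 12 h values in those libraries all lay above its 24 h values, by little. In WT 12 h replicate 3 it had 374 FPKM. The next, scaffold00330.g9471, had 1622 and 1611 FPKM in WT 12 h replicates 1 and 2, 1677 and 1686 in M2 12 h, 1591, 1579.7 and 1609 in WT 24 h, and 1429, 1471 and 1486 in M2 24 h. M2 24 h was its lowest group and M2 12 h its highest, with no overlap between them. In WT 12 h replicate 3 it had 1145 FPKM.

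The smallest range over the groups belonged to scaffold00245.g6500, with an L range of 0.067, a spread of 4.77% between the lowest and the highest group on the scale of FPKM + 1. It had 262 and 269 FPKM in WT 12 h replicates 1 and 2, 273 and 274 in M2 12 h, 269, 265 and 273 in WT 24 h, and 265, 254 and 264 in M2 24 h. The WT 24 h values overlapped those of WT 12 h and M2 12 h, and the M2 24 h values all lay below those of WT 24 h, the closest by less than 0.1 FPKM. On deposited FPKM this gene kept its level in WT 12 h replicate 3 as well, at 263 FPKM. That rests on the deposited scale, as the FPKM sum of that library was 780704, against 606886 to 617319 in the other 10. Second came scaffold00330.g9368, with an L range of 0.069. It had 165 FPKM in both WT 12 h replicates 1 and 2, 169 and 165 in M2 12 h, 179, 166 and 174 in WT 24 h, and 166, 165 and 164 in M2 24 h. M2 12 h overlapped WT 24 h, and the other groups lay just under it. In WT 12 h replicate 3 it had 126 FPKM.

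**Figure D1:**
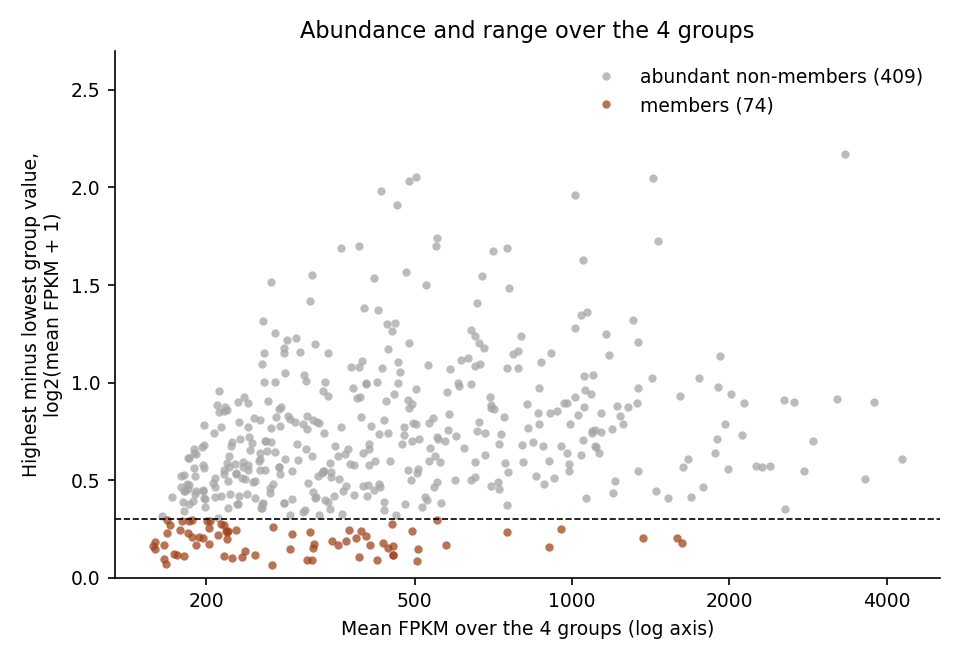
Each point is 1 of the 483 genes with at least 150 FPKM in every group, by its mean FPKM over the 4 groups (log axis) and its highest minus lowest group value on the log2(mean FPKM + 1) scale. The 74 members lie under the dashed line at 0.3, most of them below 500 FPKM, and the 409 abundant non-members reach a range of 2.17.

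Over all members the L range had a median of 0.189, or 14.0%, and a maximum of 0.298, or 22.9%. It was under 0.1 in 7 members, under 0.2 in 39, and 0.2 or more in 35. The last members inside the condition of 0.3 had ranges of 0.294 and 0.298, and the first genes outside had 0.304 and 0.316. At the abundance condition, the 3 lowest group means inside were 151 to 153 FPKM, and the first outside was 148 FPKM. Among abundant non-members the median range was 0.701. Members over and under 500 FPKM had nearly the same median range, 0.189 in both.

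M2 12 h was most often the highest of the groups, in 32 of the 74 members, or 43.2%, against 17 for M2 24 h, 13 for WT 12 h and 12 for WT 24 h. The lowest group was M2 24 h in 23, WT 24 h in 20, WT 12 h in 18 and M2 12 h in 13. M2 12 h was also highest in 38.9% of the abundant non-members. WT 24 h was highest in 16.2% of members and 37.7% of non-members, and M2 24 h in 23.0% and 7.33%. These shares were not tested against each other. The median member lay 0.04 above its own mean in M2 12 h and 0.01 to 0.02 below it in the other groups (log2). When the libraries were brought to 1 scale by median-of-ratios factors, M2 12 h was highest in 41 members, and the group most often lowest was WT 24 h, in 27, followed by WT 12 h in 22, M2 24 h in 19 and M2 12 h in 6.

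The rule bounds the size of the difference between any 2 groups and not its direction. M2 12 h was above WT 12 h in 48 members and below it in 26, with log2 differences from -0.24 to 0.29 and a median of 0.05. M2 24 h was above WT 24 h in 38 and below in 36, with a median of 0.00305. WT 24 h was above WT 12 h in 38 and below in 36, with a median of 0.00163. M2 24 h was above M2 12 h in 26 and below in 48, with a median of -0.06. Over all 9589 genes with a mean of at least 1 FPKM these medians were -0.04, 0.01, 0.02 and 0.04.

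The spread between replicates was not part of the rule. Within a group, the median SD of log2(FPKM + 1) over members was 0.0231 to 0.0322, without WT 12 h replicate 3. For abundant non-members it was 0.0198 to 0.0225, and for all genes tested 0.0558 to 0.0724. Members, steady across groups, did not have the smaller median spread inside them. Pooled over the groups, the median SD was 0.0316 for members and 0.027 for non-members, and 45 of the 74 members lay above the non-member median. Members had lower FPKM than non-members at the median, so the spread is also given by level. Among genes under 500 FPKM the medians were 0.0348 for 64 members and 0.0308 for 242 non-members, and at 500 FPKM and above 0.0216 for 10 and 0.0212 for 167. These differences were not tested.

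The largest pooled SD among members was 0.0859, in scaffold00046.g2116. It had 172 and 209.5 FPKM in WT 12 h replicates 1 and 2, 195 and 196 in M2 12 h, 213, 216 and 217 in WT 24 h, and 214, 205 and 202 in M2 24 h. Its spread lay in the WT 12 h pair, whose values enclose both M2 12 h values. For the median member the range over groups was 5.4 times its pooled SD, the ratio ran from 1.83 to 27.9, and as the rule chose on this range nothing is read from the ratio. The non-members had a median ratio of 27.3.

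**Figure D2:**
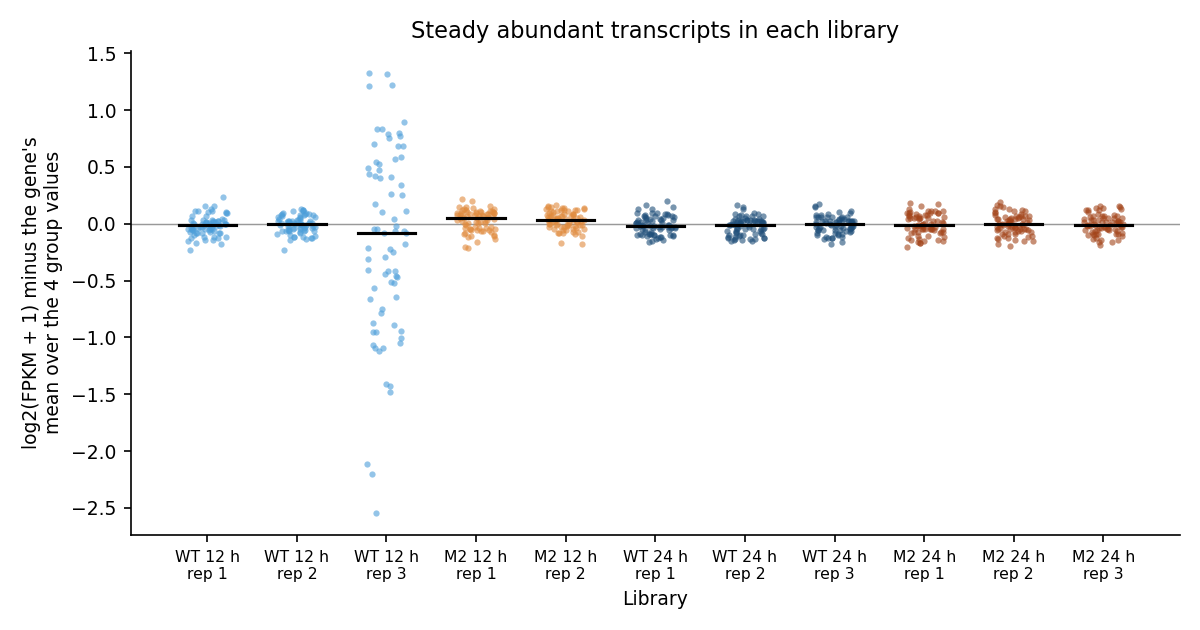
Each point is 1 of the 74 members in 1 of the 11 distinct libraries, as log2(FPKM + 1) minus the gene's mean over its 4 group values, and the bar is the median of the library. In 10 libraries every member lies between -0.231 and 0.231, and in WT 12 h replicate 3 the points run from -2.54 to 1.33.

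Taken library by library, the highest and the lowest of the 10 values used by the rule differed by 0.111 to 0.396 in log2, with a median of 0.241, and by less than 0.3 in 54 members. With WT 12 h replicate 3 added, the median difference was 0.714 and the highest 2.73, and 7 members stayed under 0.3. These values are on deposited FPKM, and which members stay under 0.3 depends on the scale given to that library.

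WT 12 h replicate 3 is the only distinct library the rule did not use, and in it the members were not steady. Compared with the mean of replicates 1 and 2, 18 of 74 members lay within 0.3 on the log2 scale, 24 were higher by at least 0.3 and 32 lower by at least 0.3. The members within 0.3 were 24.3%, compared with 20.3% of abundant non-members and 16.2% of all 9589 genes tested, where the background past 0.3 was 83.8%. At least 2-fold differences were found in 14 members, 4 higher and 10 lower, or 18.9%, against a background of 49.3% and 40.1% of the abundant non-members. By comparison, all 74 members lay within 0.3 in each of the 8 pairs of other replicates of 1 group. So did 99.8% to 100% of abundant non-members and 87.2% to 96.7% of all genes tested, so this is not particular to the members. With 1 library these values have no replicate check and no test.

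**Figure D3:**
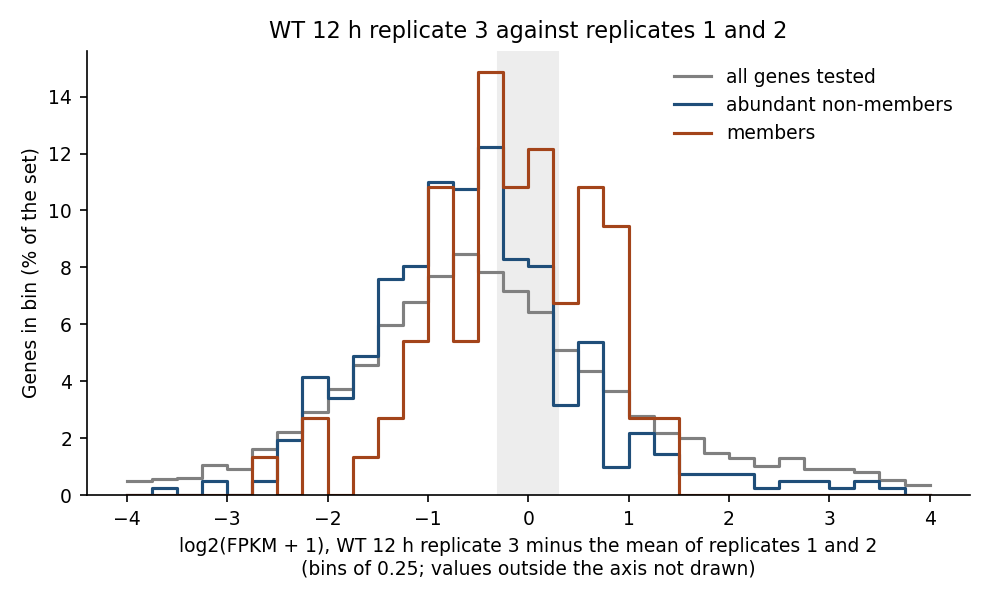
The horizontal axis is log2(FPKM + 1) in WT 12 h replicate 3 minus that of the mean of replicates 1 and 2, in bins of 0.25, and the vertical axis is the percentage of each set of genes in a bin. The grey band marks differences under 0.3, which hold 18 of the 74 members, 83 of the 409 abundant non-members and 1558 of the 9589 genes tested.

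In that library the members' sum lay close to that of the others while single members did not. Their FPKM added up to 25664, against 25933 to 27202 in the other 10 libraries, although the total of all genes was higher and their share lower, at 3.29%. Single members differed from replicates 1 and 2 by -2.52 to 1.37 in log2. The SD of this difference over members was 0.829, compared with 0.0365 to 0.079 between the other pairs of replicates. It was 1.16 over abundant non-members and 1.57 over all genes tested. A factor for a whole library shifts all its genes nearly alike in log2. The 2 scalings tried could therefore hardly change the SD over members, which stayed at 0.83.

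The median member lay at -0.07, the median abundant non-member at -0.56 and the median of all genes at -0.47. The sign for the members depends on the scale: median-of-ratios factors moved the median of all genes to -0.10 and that of the members to 0.32. Relative to the median gene the members were higher by 0.40 on deposited values and by 0.42 with that scaling, which can hardly change this difference. With these factors 18 members again lay within 0.3, or 24.3%, but 38 were higher by at least 0.3 and 18 lower, the opposite balance, against a background past 0.3 of 81.3%. Abundant non-members then lay within 0.3 in 27.1%, above the share of members. At least 2-fold differences were found in 21 members, 16 higher and 5 lower, or 28.4%, against 29.1% of abundant non-members and a background of 45.5%. The direction of the members in this library thus depends on the scale. So does whether their share within 0.3 is above or below that of the non-members. The median of the members stayed above that of the non-members: with factors over the 11 libraries alone it was 0.33, against -0.16. The other factors here were computed over the 11 libraries and the merged M2 12 h column described next.

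The member highest above its group in WT 12 h replicate 3 was scaffold00295.g8486, with 799 FPKM against 309 in both other WT 12 h libraries, 2.58 times as high on the scale of FPKM + 1. Elsewhere it had 311 and 306 FPKM in M2 12 h, 325, 319 and 332 in WT 24 h, and 327, 334 and 325 in M2 24 h. Its M2 12 h and WT 12 h values overlapped, as did its WT 24 h and M2 24 h values. At the other end, scaffold00259.g7284 had 76.5 FPKM there against 443 and 442, or 0.175 times as much. It had 410.2 and 428 FPKM in M2 12 h, 445, 427 and 447 in WT 24 h, and 509, 514 and 502 in M2 24 h, where M2 24 h was above every other group. By level, the 10 members of at least 500 FPKM had a median log2 difference of -0.49 in this library, the 26 of 250 to 500 FPKM 0.05 and the 38 under 250 FPKM -0.34, with members on either side of 0 in each band.

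**Figure D4:**
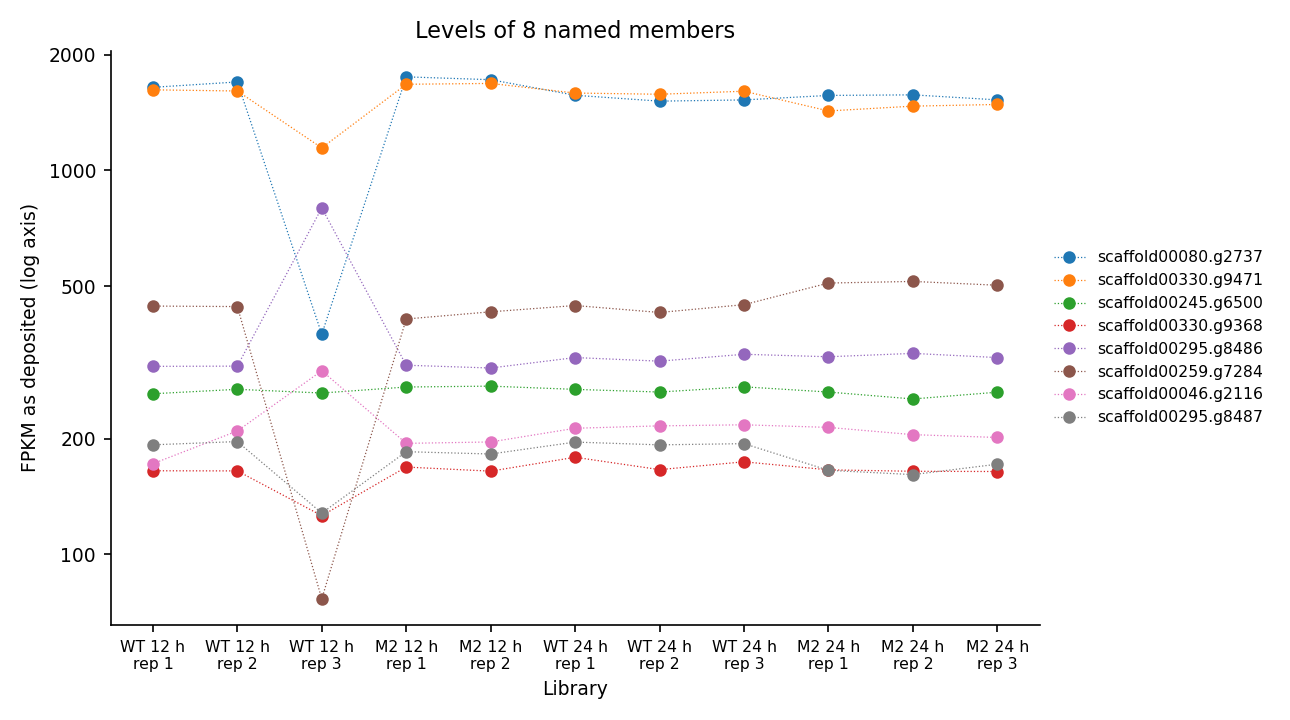
Points give the deposited FPKM (log axis) of 8 members in the 11 distinct libraries, and dotted lines only join the points of a gene. The lines are nearly flat outside WT 12 h replicate 3, where scaffold00295.g8486 stands at 799 FPKM, scaffold00080.g2737 at 374 and scaffold00259.g7284 at 76.5.

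Which libraries the authors' merged column for M2 12 h was made from is not given in the sources used here. The last of the M2 12 h columns, whose header repeats that of replicate 2, holds no values independent of replicate 1. Whether the merged column holds a library not seen otherwise cannot be told. The merged column, which the rule did not use, gave the members other values than the M2 12 h replicates. In that deposited column 66 of 74 members were lower than the mean of the 2 replicates and 8 higher. Their median log2 difference was -0.51, with an SD of 0.365 and extremes of -1.04 and 0.83. The column was low for most other genes too. Of the abundant non-members 333 of 409 were lower, with a median of -0.59, and of all genes tested 6429 of 9589, with a median of -0.38. With median-of-ratios factors 50 members were lower and 24 higher, and 283 of the 409 abundant non-members and 5243 of all 9589 genes were lower. Within 0.3 lay 20 members, or 27.0%, and the background past 0.3 was 79.5% of all genes. With median-of-ratios factors the count was 41, or 55.4%, with a background past 0.3 of 68.2%. With equal sums it was 25, or 33.8%, with a background past 0.3 of 78.4%. The merged columns of the 24 h groups lay close to their replicate means, with median differences of 0.00242 for WT and -0.00144 for M2. The merged WT 12 h column differed from the mean of all 3 WT 12 h replicates by a median of -0.23, with an SD of 0.0493 over members, and is not used further.

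Members that were low in WT 12 h replicate 3 were also low in the merged M2 12 h column. The median merged difference was -0.75 in the 32 members lower by at least 0.3 in that library, -0.48 in the 18 within 0.3, and -0.26 in the 24 higher by at least 0.3. Across the 74 members the differences of these columns correlated with Pearson r = 0.616 and Spearman rho = 0.619, and across all genes tested with r = 0.705 and rho = 0.618. Genes are not independent replicates, each side rests on 1 column, and what the correlation compares depends on the libraries behind the merged column.

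**Figure D5:**
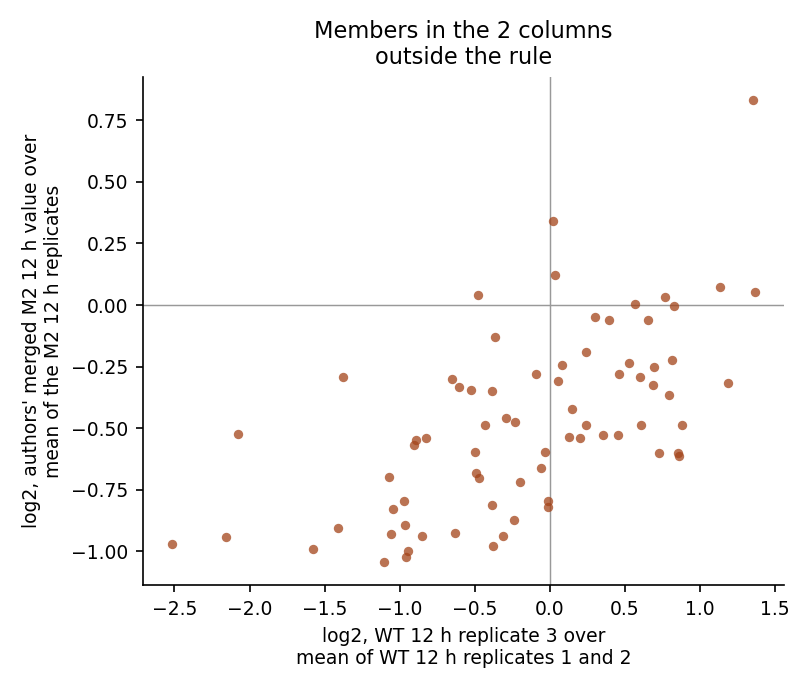
Each point is 1 of the 74 members, by its log2 difference in WT 12 h replicate 3 from replicates 1 and 2 and its log2 difference in the authors' merged M2 12 h column from the M2 12 h replicates. Points lie below 0 on the vertical axis for 66 members, and the lower left holds the members low in both. Of all 9589 genes tested, which are not drawn, 6429 were also lower in the merged column.

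The rule used the same contrasts as the tests between groups, so the following counts describe the members and nothing is read from them. With all 11 libraries in 1 limma fit on median-of-ratios scaled values, 1 member passed an adjusted p of 0.05 between M2 and WT at 12 h, where the background was 8.62% of genes. That member, scaffold00330.g9576, had group means of 154 FPKM in WT 12 h, 189 in M2 12 h, 153 in WT 24 h and 178 in M2 24 h, over the libraries the rule used. It was higher in M2 at 12 h by 0.43 in log2 (SE 0.0884, limma adjusted p = 0.0237). With WT 12 h replicate 3 left out the difference was 0.35 (SE 0.0387). Without any 1 of the M2 24 h or WT 24 h libraries 0 members passed with limma, where the background was 3.89% to 4.25%. At 24 h 0 members passed with limma, with 8 at an unadjusted p under 0.05 and a background of 4.52%. Between 24 h and 12 h in WT 2 members passed, against a background of 15.9%: scaffold00330.g9317 at -0.26 (SE 0.0596, limma adjusted p = 0.0181) and scaffold00267.g7550 at -0.25 (SE 0.067, limma adjusted p = 0.0358). In M2 the time comparison was passed by scaffold00330.g9471 alone, at -0.25 (SE 0.0675, limma adjusted p = 0.0419), against a background of 15.1%. The interaction of line and time was passed by 0 members with limma, with 1 at an unadjusted p under 0.05 and a background of 0.355%. Any 1 library was also left out, other than WT 12 h replicate 3 and those of M2 12 h. This gave 0 to 3 members for time in WT (background 8.83% to 15.5%) and 0 for time in M2 (8.47% to 15.5%). Apart from scaffold00330.g9471 these members were named after their values were seen.

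WT 12 h replicate 3 shares its spread with every group of the fit, and without it the counts were higher. The median SE of the members was 0.164 for M2 against WT at 12 h with that library and 0.0327 without it. Without it the members past the threshold were 47 for M2 against WT at 12 h (background 57.1%), 44 at 24 h (58%), 38 for time in WT (66.2%), 51 for time in M2 (70.1%) and 32 for the interaction (35.7%). In log2 the called members differed by 0.0677 to 0.351 between the lines at 12 h and by 0.0496 to 0.275 at 24 h. For time they differed by 0.0411 to 0.274 in WT and by 0.0466 to 0.342 in M2. All 95% intervals of the 74 members then lay within 0.5 of 0 in each of the 5 comparisons, and 58 to 70 lay within 0.3. With all libraries 24 to 44 lay within 0.5 and 6 to 18 within 0.3. The interval is that of each limma fit, on scaled values. The rule held the group means of the libraries it used within 0.3 of each other, so nothing is read from these interval counts. They were not made for all genes.

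By their IDs, the members fell on 29 of 283 scaffolds, 11 of them with 1 member, whereas the 483 abundant genes fell on 64 scaffolds. The most members on 1 scaffold were 9, on scaffold00330, which are 1.79% of its 504 genes, compared with 0.759% of all genes. Members can come only from abundant genes, of which this scaffold held 26, and they were 15.3% of all 483 abundant genes. The scaffold was picked as the highest of the 29, and its count was not tested. Numbers follow each other in 1 pair of members, scaffold00295.g8486 and scaffold00295.g8487, which was picked out after its values were seen. The second of the pair had 193 and 197 FPKM in WT 12 h replicates 1 and 2, 185 and 182 in M2 12 h, 196, 193 and 194 in WT 24 h, and 165, 161 and 172 in M2 24 h. It was lowest in M2 24 h, with no overlap with the other groups, where the first was highest. In WT 12 h replicate 3 the first stood at 2.58 times and the second at 0.659 times its level in replicates 1 and 2. The distance between them is not known here, and without strand information reads of overlapping genes could not be told apart.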

How the data were processed

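The authors deposited FPKM values in 1 table for each group, and authors' merged columns in 2 further tables. The submitters' processing notes name TopHat2 2.0.4 and Cufflinks 2.0.2. The sources used here give no genome build, no annotation and no word on normalization across tables, so a difference between tables and one between groups cannot be told apart. Per the labels' protocols, poly(A) RNA was primed with random hexamers for paired-end libraries without strand. The labels' treatment text describes another layout, and the groups follow the titles and the design text.

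In the M2 12 h table, 9646 of 9647 genes above 0 had the same ratio, 0.723, between the last column and replicate 1 (tolerance 0.1%), so these columns were counted as 1 library. Columns headed MT in the table linked to M2 24 h were taken as M2.

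The members and lists were chosen with earlier results of these data known. Named were the 2 highest members, the 2 of smallest range, the highest and the lowest in WT 12 h replicate 3, and the 1 with the largest spread within groups. The list of reference gene products could not be matched to IDs.

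Tests used limma 3.58.1 in R 4.3.3 on the log2 of scaled FPKM + 1, a scale on which changes of low genes look smaller than they are. The 11 distinct libraries were scaled by median-of-ratios factors over 9170 genes above 0 in all of them. All 4 groups entered 1 fit with no block for replicate numbers and with limma's intensity trend, for the 9589 genes with a mean of at least 1 FPKM. The 2-sided p-values were Benjamini-Hochberg adjusted over all of these. They measure the spread between the labelled replicates. The fit was tested on simulated data for M2 against WT at 24 h. The simulated libraries all had the spread of the 24 h libraries, so none stood apart as WT 12 h replicate 3 does. Alternatives covered pseudocounts of 0.1 and 5, filters, scalings, the replicate block, fits of the compared groups only, leaving out each library, and the limits of the rule. Python 3.11.15, numpy 2.4.6, pandas 2.3.3, scipy 1.17.1 and matplotlib 3.10.9 made the tables and figures.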

Additional observations from a re-analysis of the deposited data

Results flagged for a closer look

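Without WT 12 h replicate 3, limma's interaction of line and time passed the threshold in 32 of the 74 members. The M2 over WT difference was higher at 24 h than at 12 h in 7 of them and lower in 25, by log2 values from -0.34 to 0.27. These are 43.2% of the members, where the background was 35.7% of all genes. The members were chosen on the same libraries and contrasts, so nothing is read from the count, and with all libraries 0 members passed with limma.

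The authors' merged M2 12 h column entered no comparison between groups. It lay at a median of -0.507 in log2 from its replicates over the members, a value of -0.19 with median-of-ratios factors. Over all genes tested these medians were -0.376 and -0.08, and over abundant non-members the deposited median was -0.593. The merged WT 12 h column also departed, by -0.26 from replicates 1 and 2 and by -0.23 from all 3, whereas the merged 24 h columns departed from theirs by 0.00242 in WT and -0.00144 in M2 at the median.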

How the results depend on the processing

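Each series of 5 numbers counts the members past the threshold for line at 12 h, line at 24 h, time in WT, time in M2 and their interaction. With all libraries they were 1, 0, 2, 1 and 0 (limma; 7, 8, 9, 5 and 1 at an unadjusted p under 0.05). A pseudocount of 0.1 gave 2 and 1 for the first pair (8.82% and 4.55% of all genes). No filter gave 2, 1, 2, 0 and 0 (8.62%, 4.94%, 17%, 14.9% and 0.523%). Deposited FPKM and an equal sum both gave 0 in all 5. The shares of all genes fell as well, to 6.4%, 2.97%, 12.6%, 12.1% and 0.365% on deposited FPKM. With an equal sum they were 3.89%, 1.76%, 9.81%, 9.59% and 0.188%. The replicate block gave 0, 0, 1, 0 and 0 (2.1%, 1.88%, 13%, 9.97% and 0.0104% of all genes). Same-numbered libraries correlated at -0.0185 to 0.0313 in their deviations from the group mean over 15 pairs, none over 0.1. The deviations of the M2 12 h libraries mirror each other, and those in WT 12 h follow replicate 3. Whether the numbers pair the samples is therefore not decided. Fits of the compared groups only gave 0, 45, 0 and 48 (0%, 61.4%, 3.12% and 66.5% of all genes). Leaving out 1 library outside M2 12 h gave 0 to 47, 0 to 44, 0 to 38, 0 to 51 and 0 to 32. The upper end in each case came without WT 12 h replicate 3. Without any other of these libraries the counts were at most 1, 0, 3, 0 and 0. The shares of all genes were then 3.89% to 9.83%, 1.08% to 4.03%, 8.83% to 15.5%, 8.47% to 15.5% and 0.0209% to 0.167%. Deposited FPKM without that library, chosen after the data were seen, gave 37, 41, 39, 54 and 31 (55.5%, 56.7%, 66.1%, 69.5% and 36% of all genes).

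The rule gave 126 genes at a minimum of 100 FPKM, 30 at 300 FPKM, 39 at a range under 0.2, and 47, of which 38 are members, when WT 12 h replicate 3 entered the WT mean. Median-of-ratios scaling gave 60, 59 of them members, and leaving out 1 library the rule used gave 70 to 77. The median of the members in WT 12 h replicate 3, -0.07, was -0.42 with equal sums and 0.32 with median-of-ratios factors; for the merged M2 12 h column, -0.51 became -0.47 and -0.19. These changes come with the scale itself, as all genes moved with the members. The cause of the other changes was not tested. The unknown depth limits all counts.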

Other observations

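On deposited values, within 0.3 in WT 12 h replicate 3 and in the merged M2 12 h column lay 4 members, or 5.41%, against 4.9% of all genes tested and 5.13% of abundant non-members. With median-of-ratios factors 9 members did, or 12.2%, against 7.8% of all genes and 13% of non-members. With equal FPKM sums the count was also 9, or 12.2%, against 4.24% of all genes and 4.16% of non-members. The order of members and non-members thus depends on the scale, and these shares were not tested. The 4 were named after their values were seen. They were scaffold00007.g74 (mean 319.8 FPKM over the groups), scaffold00271.g8013 (356 FPKM), scaffold00330.g9230 (219 FPKM) and scaffold00354.g10133 (394 FPKM). The steadiest over the groups, scaffold00245.g6500, was at 263 FPKM in WT 12 h replicate 3 but at 157 in the merged column.

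Without WT 12 h replicate 3, 14 members passed the threshold in all 4 comparisons between groups, 20 in 3, 27 in 2, 10 in 1 and 3 in none (limma). These are 18.9%, 27%, 36.5%, 13.5% and 4.05% of members, against 25.7%, 26.5%, 29.8%, 9.5% and 8.53% of all genes. The rule used the same contrasts, so nothing is read from these shares. The 3 in none, named after their values were seen, were scaffold00081.g2797, scaffold00330.g9368 and scaffold00295.g8486. The last of these is the member that lay highest above its group in WT 12 h replicate 3.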
